A study of Mus musculus with 2 samples.

Results

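Strong and weak Btg2 responders are the opposite ends of the GnRH-treated LβT2 cells when each cell was ranked by its share of Btg2 transcripts. They were selected on their own Btg2 level: for each cell, the unique molecular identifiers (UMIs, tags that let each captured transcript be counted once) of Btg2 were divided by the UMIs of all other analysed genes, and the top and bottom quartiles were taken. Of 1889 GnRH-treated cells, 1781 had at least 300 UMIs and were ranked. The strong quartile held 445 cells and the weak quartile 445, together 890 of the 3881 cells of both treatments. The Btg2 difference between the quartiles is therefore a description of the choice and not a finding.

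LβT2 is an immortalised mouse pituitary cell line with gonadotrope features, here at passage 15. In 12-well plates, one culture received 2 nM GnRH and one received vehicle, both for 40 min, and each gave 1 droplet-based 3′ single-cell RNA-seq library. The vehicle library, which carried no GnRH, held 1992 cells, of which 1773 had at least 300 UMIs and served as the background. With 1 library per treatment the cells are not replicates, so differences are given as values with 95% counting intervals and without a test.

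GnRH is the hypothalamic peptide that drives gonadotropes to synthesise and secrete luteinising and follicle-stimulating hormone. It acts through a G protein-coupled receptor, calcium and mitogen-activated protein kinases to switch on a set of early genes within minutes. Btg2, an antiproliferative cofactor of mRNA deadenylation, is one of the classical early response genes. Early response genes are switched on by transcription factors already present in the cell, among them CREB at the cAMP response element and serum response factor at the CArG box, and their own products include the EGR factors.

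The table held 1068 genes, 3.81% of the 27998 listed. Of these, 1062 matched a gene annotated on chromosome 1, and other chromosomes were not searched. Levels are given as CPM, here the UMIs of a gene per 1000000 UMIs of the analysed genes other than Btg2, and not of the whole transcriptome. None of the 6 gonadotrope markers of the marker list (Lhb, Fshb, Cga, Gnrhr, Nr5a1 and Pitx1) was among the analysed genes, so the cell label was not checked here. Of the markers of other cell types only the fibroblast gene Col3a1 was present, with 0 UMIs in the 1781 ranked GnRH cells, where 3 counts would be 2.82 CPM. Cells were identified by serial numbers, so barcodes shared by both libraries could not be counted, and 0 cells had identical counts in both.

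Btg2 was spread widely over the GnRH cells. A weak responder had a median of 3 Btg2 UMIs (range 0 to 11), a cell of the second quartile 11 (4 to 41), a cell of the third quartile 21 (8 to 59) and a strong responder 35 (15 to 128). A vehicle cell had a median of 0 (0 to 14). Per 100 UMIs of other genes, the medians were 0.524, 1.84, 3.60 and 6.22 from the weak to the strong quartile, and the highest single cell reached 17.0. The last weak cell had 1.059 and the next cell above it 1.061, and the last cell below the strong quartile had 4.641 and the first strong cell 4.651. These limits were set by rank.

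**Figure D1:**
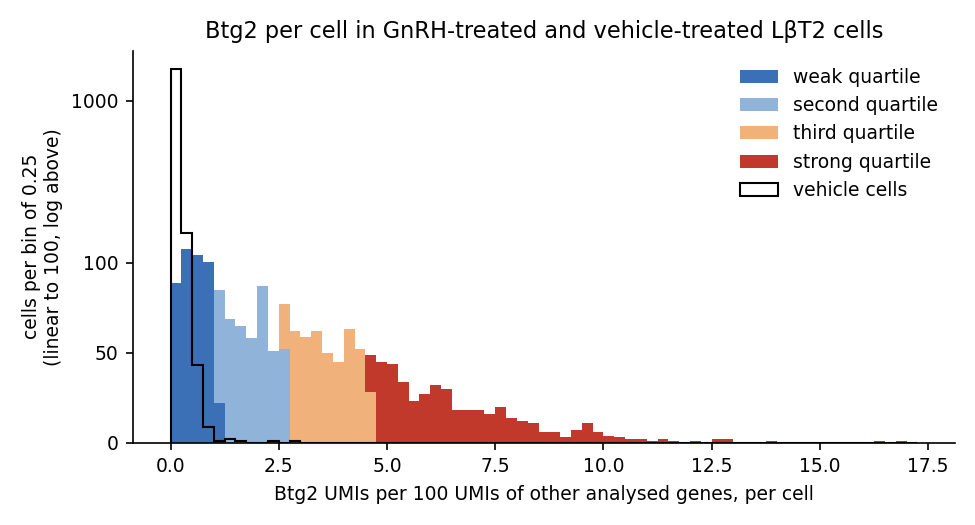
Cells per bin of Btg2 UMIs per 100 other UMIs, stacked by quartile for GnRH-treated cells (colours) and outlined for vehicle-treated cells; the vertical axis is linear to 100 cells and logarithmic above. The strong quartile begins at 4.651 and reaches 17.0, while 180 weak cells lie at or under 0.422, the level that holds 95% of vehicle cells.

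The weak quartile reached down into the vehicle range. The 95th percentile of vehicle cells was 0.422 Btg2 UMIs per 100, and 180 of the 445 weak cells (40.4%, exact binomial interval 35.9 to 45.2%) were at or under it. By the ranking itself, cells of the other quartiles lay above it. Btg2 was without a UMI in 31 weak cells (6.97%, interval 4.78 to 9.74%) and in 1172 of 1773 vehicle cells (66.1%, 63.8 to 68.3%). Summed over cells, Btg2 stood at 5463 CPM in the weak quartile (interval 5177 to 5760) and 930 CPM in vehicle cells (873 to 989). At 65352 CPM the strong quartile was 12.0-fold above the weak quartile, by the choice of the cells.

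Both ends were shallower than the middle of the ranking. The median number of UMIs other than Btg2 was 526 in weak cells, 594 in the second quartile, 596 in the third and 516 in strong cells, with 571 in vehicle cells. The weak and strong quartiles had UMIs from a median of 153 and 156 genes per cell, so that the compared ends were alike in depth.

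To ask what else differed between strong and weak responders, UMIs were summed over the cells of each quartile for the 378 genes other than Btg2 with at least 100 UMIs over the ranked cells. A size of 1.5-fold was used to call a gene higher or lower. In the strong quartile 18 genes were higher, 4.76% of those compared, and 15 were lower, 3.97%, while 345 lay within the fold. The median log2 ratio over all 378 genes was -0.0045, with an interquartile range from -0.18 to 0.18. The counting interval excluded 0 for 18 of the 18 higher genes and for 11 of the 15 lower, and lay wholly past the fold for 9 and 1. The genes were called on these same counts, so their intervals are no independent support. Abundant genes within the fold, among them Igfbp2 and Scg2, also had intervals that excluded 0. Under 13 other ways of choosing or scaling the cells, the ratios of 16 of the 18 higher genes but only 5 of the 15 lower ones stayed past the fold throughout, whether or not the gene still had 100 UMIs. Since any gene's own UMIs are part of the denominator of the ranking, an abundant gene is tied to the rank by construction.

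**Figure D2:**
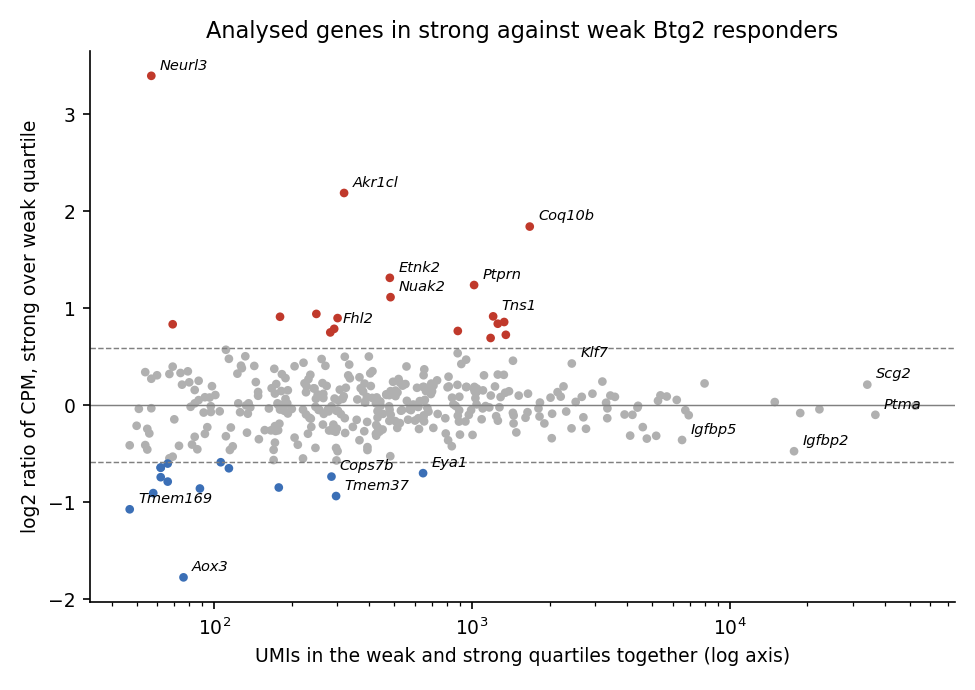
Log2 ratio of CPM between strong and weak responders against the UMIs of the gene in both quartiles (log axis), 1 point per gene; dashed lines mark 1.5-fold, red points are higher and blue points lower. Neurl3, Akr1cl and Coq10b stand highest, at 3.40, 2.19 and 1.84, and Aox3 lowest, at -1.78.

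Coq10b, which encodes a coenzyme Q-binding protein of mitochondria, had the most UMIs of the 3 genes with the largest ratios. It stood at 634 CPM in vehicle cells and at 1471, 2241, 3463 and 5275 CPM from the weak to the strong quartile. Each quartile lay above the one before, and even the weak quartile lay above vehicle, with a log2 ratio of 1.21 (1.03 to 1.40). Strong over weak, Coq10b was 3.59-fold higher (log2 1.84, interval 1.67 to 2.01, 1306 against 369 UMIs). Over deciles of the ranking, it ran from 1223 CPM in the cells with least Btg2 to 6174 CPM in those with most. The gene (chr1:55052770-55072702, + strand, GRCm38) overlaps a transcript annotated on the opposite strand, and whether counting used the strand is not given in the sources used here.

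After thinning each cell to 300 UMIs, Coq10b had a UMI in 34.8% of weak cells (interval 30.3 to 39.4%), 45.4% of the second quartile, 62.3% of the third and 77.7% of strong cells (73.5 to 81.4%), against 16.3% of vehicle cells (14.6 to 18.1%). Without thinning the weak and strong shares were 54.6% and 91.7%. The background from free RNA was not measured, since the library holds no cell type that lacks these genes, and the shares include it.

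Neurl3, a ubiquitin ligase of the neuralized family, was rare and highest in the cells with most Btg2. Its UMIs numbered 5, 20, 30 and 52 from the weak to the strong quartile, or 19.9, 70.8, 106 and 210 CPM, against 9.24 CPM (10 UMIs) in the vehicle cells. Strong over weak, this was a log2 ratio of 3.40, loosely bounded at 2.08 and 5.08. In the strong quartile 43 of 445 cells had a Neurl3 UMI (9.66%, interval 7.08 to 12.8%) and in the weak quartile 5 of 445 (1.12%, 0.366 to 2.60%).

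These genes belong to a list of 13 transcripts taken as early GnRH genes. The list was drawn up with the GnRH and vehicle comparison of these same libraries known, so it is not independent evidence of their direction against vehicle. Apart from Btg2, 10 of its members passed the minimum of 100 UMIs, of which 7 were higher in strong responders, 0 were lower, and 3 were within the fold, beside 4.76% and 3.97% of all genes compared. Neurl3, with 107 UMIs in all, passed the minimum only through the 52 of the strong quartile, so its place in the count is no support, and 6 rather than 7 were past the fold with at least 500 UMIs per cell, after thinning before ranking and without the 5% of cells with most UMIs. Over the 10 members the median log2 ratio was 0.78, beside -0.0045 over all genes. Summed over the 12 members other than Btg2, the list stood at 5082 CPM in vehicle cells and at 7488, 9994, 12943 and 16362 CPM from the weak to the strong quartile, a log2 ratio of 1.13 (1.05 to 1.21) strong over weak.

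Ptprn, the transmembrane protein IA-2 of dense-core secretory granules, stood at 811 CPM in vehicle cells and at 1220, 1526, 2215 and 2880 CPM along the quartiles. It was 2.36-fold higher in strong than in weak cells (log2 1.24, 1.04 to 1.44). Bag2, a co-chaperone of Hsp70, was at 1314 CPM in vehicle cells and at 1814, 1915, 2529 and 3247 CPM, a log2 ratio of 0.84 (0.67 to 1.01). For both genes the step from the weak to the second quartile was the smallest. Ppp1r15b, the subunit that directs a phosphatase to the translation factor eIF2α, had its smallest step at the strong end, at 1312, 1774, 2113 and 2230 CPM against 1173 in vehicle cells.

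Fhl2, a LIM-domain transcriptional cofactor, had a different shape. It stood at 184 CPM in vehicle cells and at 431, 782, 716 and 743 CPM along the quartiles. The weak quartile was already above vehicle (log2 1.23, 0.88 to 1.57), and the second, the third and the strong quartile lay close together, so that the strong over weak log2 ratio of 0.79 (0.44 to 1.14) arose between the first and second quartiles. Tmem198, which shares sequence with Obsl1 on the opposite strand, went from 423 to 711 CPM (log2 0.75, 0.39 to 1.11).

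Of the early genes within the fold, the clock repressor Per2 was at 347, 478, 522 and 384 CPM, with a strong over weak log2 ratio of 0.15 (-0.29 to 0.58). The uncharacterised transcript 2810459M11Rik had a ratio of 0.37 (-0.08 to 0.83), and the Bcl2 family member Bok 0.31 (-0.47 to 1.10). The ratio of 2810459M11Rik was past the fold under 2 of the 13 other ways of choosing or scaling the cells. The sign of Bok was not stable: its ratio was -0.64 when cells were thinned before ranking and -0.05 without cells that have no Btg2 UMI. The intervals of 2810459M11Rik and Bok held both 0 and 1.5-fold, so a difference of that size was not detectable for them at this depth. The long non-coding transcripts Gm28321 and Gm7967 fell under the minimum, with 2 weak and 14 strong UMIs and 9 weak and 26 strong UMIs. Gm28321 had 0 UMIs in vehicle cells, which allows up to 3.41 CPM, and stood at 56.5 CPM in the strong quartile.

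**Figure D3:**
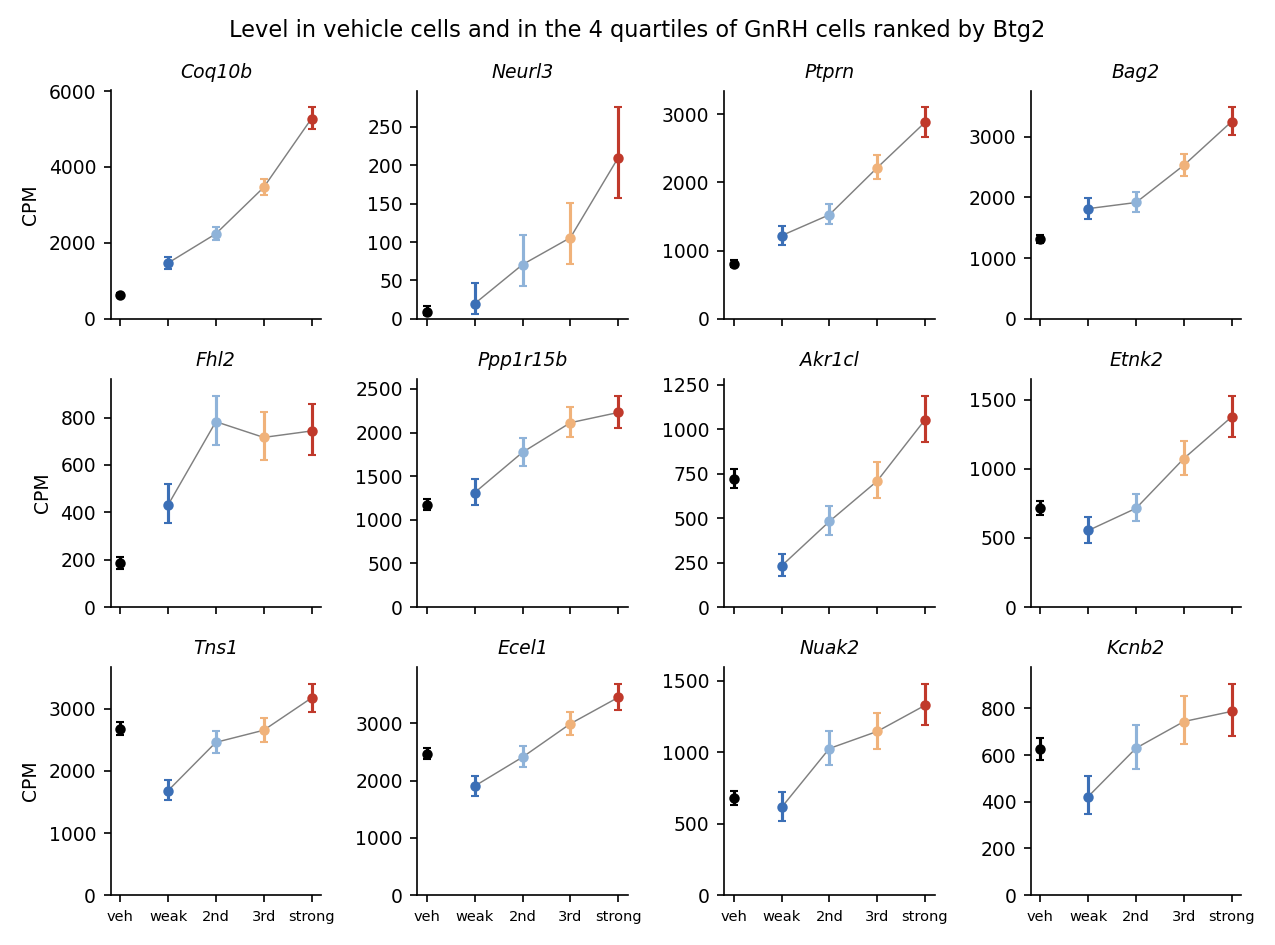
CPM of 12 higher genes in vehicle cells (black) and in the 4 quartiles of GnRH cells by Btg2 (colours), with exact Poisson intervals that cover counting error only. Coq10b runs from 1471 to 5275 CPM above a vehicle level of 634, whereas Akr1cl runs from 231 to 1054 CPM across a vehicle level of 722.

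By their values, the 18 higher genes differed in where vehicle cells stood. For some, vehicle cells lay below both ends of the GnRH cells, and for the others between the ends. Among the first were the early genes Coq10b, Neurl3, Ptprn, Bag2, Fhl2, Ppp1r15b and Tmem198, together with Clk1, a kinase of SR splicing factors, at 1724 CPM in vehicle cells and at 1814, 2220, 2441 and 2932 CPM along the quartiles. Weak responders were at least 1.5-fold above vehicle for Coq10b, Fhl2, Neurl3 and Ptprn. For Neurl3 this rests on 5 weak and 10 vehicle cells with a UMI. Other genes, among them Akr1cl, Tns1 and Sox13, had weak responders at least 1.5-fold below vehicle. The sorting used the values alone, and Clk1, for one, had its weak end close to vehicle. Shares over all compared genes were not counted, so the sorting describes single genes only.

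Akr1cl, a member of the aldo-keto reductase family, was the clearest case of vehicle cells lying between the ends. It stood at 722 CPM in vehicle cells (672 to 775) and at 231, 481, 709 and 1054 CPM from the weak to the strong quartile. By deciles the rise was not steady. It went from 135 CPM in the lowest to 897 CPM in the seventh, 509 CPM in the eighth and 1518 CPM in the highest. Strong responders were 4.56-fold above weak ones (log2 2.19, 1.77 to 2.62). Against vehicle, weak responders lay lower by a log2 ratio of -1.64 (-2.05 to -1.26) and strong responders higher by 0.55 (0.34 to 0.75). Thus the vehicle level fell inside the range spanned by the GnRH cells and close to the third quartile.

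Akr1cl was found in few cells of any quartile. After thinning to 300 UMIs it was seen in 7.0% of weak (4.80 to 9.79%), 10.8% of the second quartile, 12.4% of the third quartile and 16.9% of strong cells (13.6 to 20.8%), and in 12.5% of vehicle cells (11 to 14.1%). The highest count in 1 cell was 5 UMIs in the weak quartile, 8 in the second, 21 in the third and 23 in the strong quartile, and 30 in vehicle cells. Both the share of cells with the transcript and the largest count per cell were therefore lowest at the weak end.

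The Akr1cl cells were then set apart, a division chosen after the values were seen. Of 1781 GnRH cells, 320 had an Akr1cl UMI, of which 41 were weak and 111 strong responders, and their median Btg2 level was 3.54 per 100 against 2.53 in the 1461 without. They were also somewhat deeper, with a median of 588 against 550 other UMIs, and the part of depth in the difference was not tested. Coq10b followed Btg2 in both sets, with a strong over weak log2 ratio of 1.47 (1.02 to 1.95) in cells with Akr1cl and 1.89 (1.70 to 2.07) in cells without. Ptprn did so too, at 1.70 (0.97 to 2.51) and 1.27 (1.07 to 1.48). In vehicle cells, summed over cells, Btg2 was at 0.106 per 100 UMIs where Akr1cl was seen and at 0.0897 where it was not.

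The other genes with vehicle between the ends were of varied function. Etnk2, the ethanolamine kinase of phosphatidylethanolamine synthesis, stood at 714 CPM in vehicle cells and at 554, 715, 1076 and 1377 CPM along the quartiles, a log2 ratio of 1.31 (1.02 to 1.61). Nuak2, an AMPK-related kinase, was at 679 CPM in vehicle cells and at 614, 1027, 1146 and 1329 CPM, a ratio of 1.11 (0.83 to 1.40). The largest step of Nuak2 lay between the weak and second quartiles, and that of Etnk2 between the second and the third.

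Tns1, which links integrin adhesions to actin, was at 2682 CPM in vehicle cells and at 1683, 2461, 2656 and 3175 CPM (log2 0.92, 0.74 to 1.09). Weak responders lay below vehicle for Tns1 (log2 -0.67, -0.82 to -0.52) and for the transcription factor Sox13 (-0.81, -1.22 to -0.43). Sox13 itself was at 251, 347, 487 and 473 CPM and Kcnb2, a voltage-gated potassium channel, at 423, 630, 744 and 788 CPM. For Tns1, Sox13 and Kcnb2 the second quartile was already nearer to vehicle than the weak quartile was.

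Ecel1, a membrane metallopeptidase, was at 1906, 2411, 2994 and 3453 CPM against 2472 in vehicle cells (strong over weak log2 0.86, 0.69 to 1.02). The transmembrane semaphorin Sema4c was at 343, 499, 688 and 658 CPM against 372 (log2 0.94, 0.56 to 1.33). Both had a strong end above vehicle by a log2 ratio of 0.48 and 0.82, in that order.

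The order of the quartiles was stepwise for most of the higher genes. Of the 18, 14 lay higher in each quartile than in the one before, while 40 of all 378 genes (10.6%) did so. Since the genes were named by their outer quartiles, this order is partly fixed by the choice. Of the 15 lower genes, 5 fell in every step, beside 31 of all genes (8.20%).

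**Figure D4:**
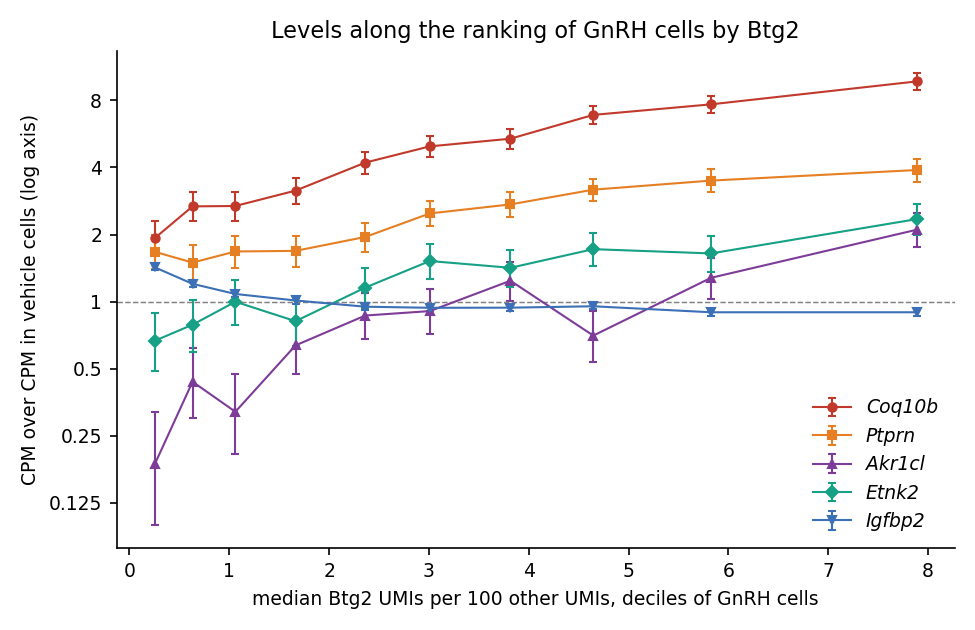
CPM relative to vehicle cells (log axis) for 5 genes over deciles of the GnRH cells, placed at the median Btg2 level of each decile, with exact Poisson intervals on the GnRH count. Coq10b and Ptprn stay above vehicle along the whole ranking, Akr1cl and Etnk2 cross it, and Igfbp2 is above it in the 4 deciles with least Btg2.

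Promoter sequence was compared for Btg2 and the genes higher in strong responders, and the lower genes were not searched. RefSeq windows of 250 bases before the transcription start (GRCm38.p6, gene strand) were given for 15 of the 19 genes made up of Btg2 and the 18 higher genes. The windows of Btg2, of the early genes Coq10b and Fhl2, and of Akr1cl, which crossed the vehicle level, are printed below with motif matches in capitals. They lie at chr1:134079156-134079405 (- strand), chr1:55052520-55052769 (+), chr1:43163962-43164211 (-) and chr1:65032760-65033009 (-), in that order.
Btg2: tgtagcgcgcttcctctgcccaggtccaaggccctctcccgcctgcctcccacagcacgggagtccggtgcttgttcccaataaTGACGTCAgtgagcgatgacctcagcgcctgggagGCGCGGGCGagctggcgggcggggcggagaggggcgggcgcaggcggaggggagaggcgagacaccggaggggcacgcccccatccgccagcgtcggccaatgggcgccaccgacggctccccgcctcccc
Coq10b: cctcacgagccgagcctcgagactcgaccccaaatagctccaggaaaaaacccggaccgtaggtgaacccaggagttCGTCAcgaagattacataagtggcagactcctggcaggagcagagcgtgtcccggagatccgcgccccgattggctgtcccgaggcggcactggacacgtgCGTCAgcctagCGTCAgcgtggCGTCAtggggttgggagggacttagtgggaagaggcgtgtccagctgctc
Fhl2: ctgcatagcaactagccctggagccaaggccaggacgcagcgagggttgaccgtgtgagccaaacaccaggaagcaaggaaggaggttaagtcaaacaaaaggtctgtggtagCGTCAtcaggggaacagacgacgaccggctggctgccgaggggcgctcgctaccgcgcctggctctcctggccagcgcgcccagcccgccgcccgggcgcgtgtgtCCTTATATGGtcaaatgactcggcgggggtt
Akr1cl: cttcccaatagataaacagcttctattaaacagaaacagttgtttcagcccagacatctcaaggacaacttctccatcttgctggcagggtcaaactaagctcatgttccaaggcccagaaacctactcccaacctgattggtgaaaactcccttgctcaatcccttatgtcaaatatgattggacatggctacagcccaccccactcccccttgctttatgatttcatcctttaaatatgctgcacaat

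Each motif was searched on both strands. The Btg2 window held the complete cAMP response element, TGACGTCA, 158 bases before the start, and an EGR site, GCGNGGGCG, 122 bases before it. The Coq10b window held 4 copies of the short element TGACG, all on the opposite strand as CGTCA, the nearest 45 bases before the start. The Fhl2 window held a CArG box (6 bases of A or T between CC and GG) 21 bases before the start and a short element at 132 bases, and the Akr1cl window held none of the motifs. The short element is contained in the complete one, so that the Btg2 match counts for both.

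Among all 32851 RefSeq windows of the same length, 1.55% held TGACGTCA, 17.8% TGACG, 1.47% a CArG box and 4.70% the EGR site. Of the 18 windows of these 15 genes, 2 held the complete element (Btg2 and Tmem198), 9 the short element, 2 a CArG box (both windows of Fhl2) and 2 the EGR site (Btg2 and Etnk2). A match is a description of the letters in the window, and binding was not measured here.

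Fewer molecules lay behind the genes that were lower in strong responders. Aox3, an aldehyde oxidase, was at 195 CPM in vehicle cells and at 235, 188, 138 and 68.7 CPM from the weak to the strong quartile (log2 -1.78, -2.65 to -0.98, 59 weak against 17 strong UMIs). After thinning, Aox3 was seen in 6.55% of weak and 2.26% of strong cells. Tmem37, a calcium channel gamma-like subunit, was at 782, 425, 483 and 408 CPM against 561 in vehicle cells (log2 -0.94, -1.30 to -0.58). Its difference lay between the weak quartile and the other three.

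Eya1, a transcriptional cofactor and phosphatase, was the most abundant lower gene, at 1603, 1487, 1256 and 986 CPM (log2 -0.70, -0.94 to -0.47), against 1371 in vehicle cells. Cops7b, a subunit of the COP9 signalosome, was at 714, 690, 600 and 428 CPM and at 892 in vehicle cells (log2 -0.74, -1.10 to -0.38). Osgepl1, a tRNA-modifying enzyme of mitochondria, was at 459, 336, 268 and 254 CPM (log2 -0.85, -1.32 to -0.39). By these values, vehicle cells lay between the ends for Eya1 and above both for Cops7b.

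Other lower genes had 15 to 44 UMIs in the strong quartile. They included Tmem169, Adgrb3, Kdelc1, Gm28800, March4 and Col19a1, with log2 ratios from -1.07 for Tmem169 to -0.65 for Col19a1, and, named from the list of transcription regulators, Carf, the calcium-responsive transcription factor, at -0.59. Carf was on the other side of 0 when deciles were compared (0.10). The interval of March4 (-1.55 to 0.04) held 0. Genes of both groups, the lower and the higher, include some that overlap another annotated gene on either strand. Their counts are uncertain to that extent.

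Among abundant genes, Igfbp2, a binding protein of insulin-like growth factors, was highest in weak responders. It stood at 41409, 32546, 30687 and 29784 CPM along the quartiles and at 32652 in vehicle cells, a strong over weak log2 ratio of -0.48 (-0.52 to -0.43), which is within 1.5-fold. By deciles it went from 46561 CPM in the cells with least Btg2 to 29273 in those with most, a log2 ratio of -0.67, which is past the fold. Its relative Igfbp5 had a ratio of -0.36 (-0.43 to -0.29). Both are abundant and part of the denominator of the ranking, though other genes have more UMIs than Igfbp5. So is Scg2, a granin of secretory granules, which went the other way from 63567 to 73599 CPM (0.21, 0.18 to 0.24).

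The other lists are read beside the shares of all compared genes, 4.76% higher and 3.97% lower. Of 3 genes of secretory granules, 2 were higher (Ptprn, also an early gene, and Ecel1, whose product is a metallopeptidase of membranes) and 0 lower, with a median log2 ratio of 0.86. Of 6 chaperone and stress genes, 2 were higher (Bag2 and Ppp1r15b, both also early genes) and 0 lower, with a median of 0.26. The heat shock chaperonins Hspd1 and Hspe1, transcribed from a shared promoter region, had ratios of 0.03 (-0.08 to 0.15) and 0.10 (0.02 to 0.18).

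The growth and housekeeping lists held 0 genes past the fold in either direction among 3 ribosomal protein genes (median -0.043), 8 mitochondrial genes (0.055), 9 cell cycle genes (-0.053) and 6 genes of ribosome biogenesis (0.019). Of the cell cycle list 3 genes lay above 0 and 6 below, and its summed ratio was -0.11 (-0.16 to -0.06). The replication helicase genes Mcm3 and Mcm6 had ratios of 0.19 (0.07 to 0.31) and 0.13 (0.01 to 0.26), and Nucks1, a chromatin protein, -0.35 (-0.43 to -0.26). The gene farthest from 0 was Sgol2a, which protects centromeric cohesion, at -0.57 (-0.92 to -0.23), named after its values were seen. Among 4 genes of splicing and chromatin 1 was higher (Clk1, median -0.0004), and among 5 cell death genes 0 were past the fold (median 0.019). At the background shares of 4.76% and 3.97%, each of these short lists would hold under 1 gene past the fold, so a count of 0 does not set them apart.

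Of 10 transcription regulators 1 was lower (Carf) and 0 higher, with a median of 0.11, which is near the 3.97% and 4.76% of all genes for a list of this length. Creb1, which encodes the factor that binds the cAMP response element, had a ratio of 0.13 (-0.12 to 0.39), Elk4, a cofactor of serum response factor, 0.33 (0.04 to 0.62), and Klf7 0.43 (0.31 to 0.55). Of 12 kinases, phosphatases and G protein regulators 0 were past the fold in either direction (median -0.059), where the same shares would give about 1. For Mapkapk2, a kinase downstream of p38, the ratio was 0.22 (0.003 to 0.44).

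The inhibin subunit genes Inha and Inhbb, whose products act on follicle-stimulating hormone, were within the fold, at 0.42 (0.23 to 0.62) and 0.10 (-0.05 to 0.25). Of 12 genes that vary between cells in these libraries 2 were higher (Akr1cl and Tns1) and 0 lower, beside 4.76% and 3.97% of all genes, with a median of 0.22. That list was drawn up on these same cells and adds no independent evidence.

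**Figure D5:**
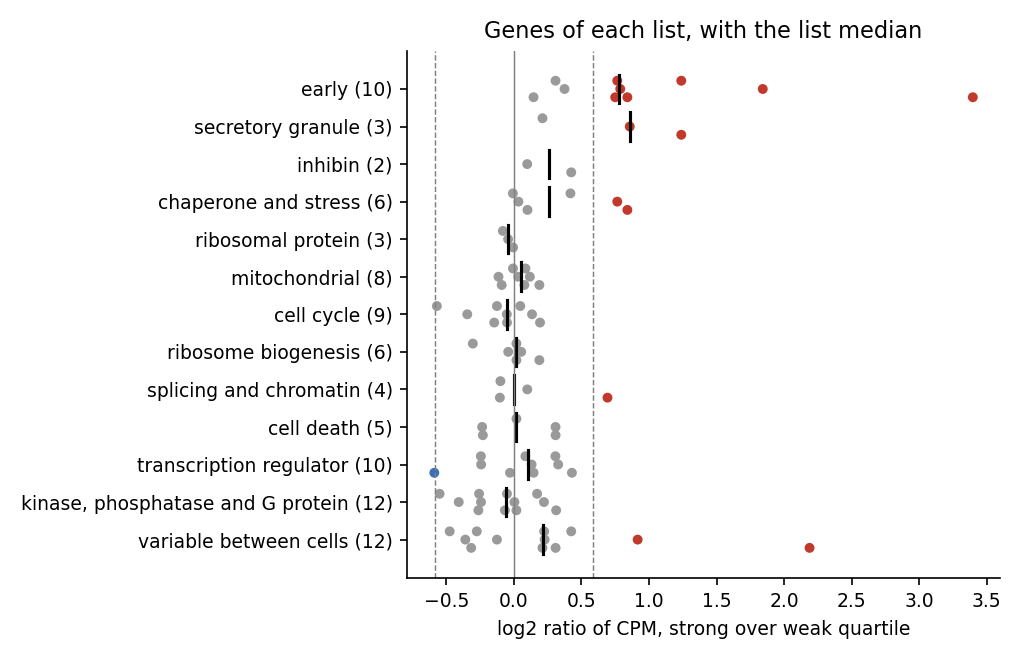
Log2 ratio of CPM, strong over weak responders, for each gene of 13 lists (number of genes in parentheses), with the list median as a black bar and 1.5-fold as dashed lines; points are spread vertically only to be seen. The early list has 7 genes past the fold and a median of 0.78, while the ribosomal protein, mitochondrial and cell cycle lists have 0 genes past it.

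As a background without GnRH, vehicle cells were divided into 601 with and 1172 without a Btg2 UMI. In this division 4 of the 378 genes were at least 1.5-fold higher and 0 lower in cells with Btg2, and the median log2 ratio was 0.0043. With at least 2 Btg2 UMIs against none, 11 genes were higher and 5 lower. Of the 18 genes higher in strong GnRH responders, 9 had a ratio above 0 and 1 was past the fold (Neurl3, 6 against 4 UMIs), with a median of -0.0062. Of the 15 lower genes, 3 had a ratio below 0 and 0 were past the fold, with a median of 0.084. Coq10b had a ratio of -0.27 (-0.51 to -0.04), Akr1cl of -0.04 (-0.26 to 0.17), Etnk2 of 0.05 (-0.16 to 0.26) and Ptprn of 0.22 (0.02 to 0.42). The other genes past the fold, named after their values were seen, were Sgol2a at 0.83 (0.62 to 1.05), the kinase gene Stk17b at 0.72 (0.47 to 0.96) and Dsel at 0.61 (0.04 to 1.17). Strong over weak in GnRH cells, Sgol2a, Stk17b and Dsel had ratios of the other sign, -0.57, -0.55 and -0.41, as had Nucks1, at 0.36 (0.31 to 0.42) in vehicle and -0.35 in GnRH cells. Vehicle cells with Btg2 were deeper than those without, with a median of 642 against 540 other UMIs. The divisions of vehicle and GnRH cells are of different kinds, and the difference between the treatments in these ratios was not tested.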

How the data were processed

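The deposited values were raw UMI counts per gene and cell from droplet-based 3′ single-cell RNA-seq of 1 vehicle and 1 GnRH library, which the authors made with Cell Ranger 1.3, as named in the methods and the submitters' processing notes. They cover called cells and carry no normalisation. Use of strand and the annotation behind the counting are not given in the sources used here. The table analysed held the first 1068 genes of the list, and 1 incomplete row was left out. No doublet caller was run.

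Cells with at least 300 UMIs were ranked by Btg2 UMIs over all other UMIs. UMIs were summed per gene and quartile and scaled to CPM of UMIs other than Btg2. Genes with at least 100 UMIs over the ranked cells were compared, and a ratio of at least 1.5-fold was called by size alone. A sum of 0 was set to 3 counts where a ratio was formed. Intervals are 95% intervals (exact Poisson for sums, Clopper-Pearson for shares, conditional binomial for ratios). They cover counting error only. For shares at equal depth, cells were thinned to 300 UMIs other than Btg2, which left out 2 weak, 3 middle and 2 strong cells. Named genes were Btg2, the early list, the 12 largest ratios in each direction and, from every other list, members past the fold and up to 4 abundant ones, and 1 gene of the rule is not reported here. The members, lists and rules were chosen with earlier results of these data known. Gene positions are from GENCODE M21 (GRCm38) and promoters from RefSeq. Scripts used Python 3.11.15, NumPy 2.4.6, SciPy 1.17.1 and, for the TMM and median-of-ratios scaling factors alone, edgeR 4.0.16 in R 4.3.3, and were tested on simulated data.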

Additional observations from a re-analysis of the deposited data

How the results depend on the processing

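The comparison was repeated under 13 alternatives to the cells, the ranking or the scaling, 1 of them (without cells that have an Akr1cl UMI) chosen after seeing the data. Of the 18 higher genes, 18 kept their sign and 16 stayed past 1.5-fold in each alternative in which they could be measured; the exceptions, in 1 alternative each, were Tmem198 (0.54) and Clk1 (0.56). Of the 15 lower genes, 13 kept their sign, except Carf and Wnt6 (up to 0.27; named after its values were seen), and 5 stayed past the fold (Aox3, Tmem169, Adgrb3, Gm28800 and Cops7b). For a lower gene that passed the minimum of 100 UMIs only through the weak quartile, staying past the fold is no support. Among 72 named genes, 898 values under the alternatives were within the counting error or spread of the main value, 36 moved and 1 called value reversed: Carf, -0.59 by quartiles, was 0.10 by deciles. Of the genes within the fold, 10 took the other sign in at least 1 alternative, 9 of them with a main value within 0.1 of 0 and the other being Bok (0.31, and -0.64 when thinned before ranking). The top and bottom decile gave 37 higher and 33 lower genes and a summed early log2 ratio of 1.34, and the top and bottom tercile gave a summed ratio of 1.00. TMM scaling left 18 and 15 genes. The ratios that stayed past the fold include genes that no longer had 100 UMIs. With that minimum applied again, 20 of the 33 genes were still called after thinning before ranking, 24 with at least 500 UMIs per cell, 24 without cells that have an Akr1cl UMI, and 27 to 33 under the others.

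Counts followed the limits set. With at least 50 UMIs per gene 23 genes were lower, with at least 200 only 6, and with 1 UMI in each end 35 were higher and 48 lower. At a ratio of at least 5 to 4, 46 were higher and 47 lower, and at 2-fold 6 and 2. With at least 500 UMIs per cell the median depth was 628 in weak and 583 in strong cells. Without thinning, shares of weak and strong cells with a UMI were 54.6% and 91.7% for Coq10b and 41.1% and 66.3% for Ptprn, and 24.9% of strong cells for Akr1cl. Vehicle cells with at least 2 Btg2 UMIs against none gave 11 higher and 5 lower genes. No paired analysis was possible because the samples are 1 library a treatment and the quartiles are cells of one library. The depth of about 500 to 600 UMIs per cell limits the rarer genes, most of all the lower ones.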
